A study of Mus musculus with 11 samples.

Results

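The AP-1 family of transcription factors was followed in the gingival epithelium of mice through 8 genes, the Fos members Fos, Fosb, Fosl1 and Fosl2, the Jun members Jun, Junb and Jund, and Atf3. They were taken from the deposited table by gene name, all 8 of them had values, and they are 8 of the 19170 genes with values. The members were selected on the difference between DT-treated and PBS-treated mice, which was known when they were chosen, so those differences, with their errors and the calls of the fit over all genes, are given below as a description, with no p-value for a member and nothing concluded from them.

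AP-1 is a dimer of basic leucine zipper (bZIP) proteins. Fos proteins need a Jun partner to bind DNA, whereas Jun proteins can also pair with each other, and Atf3 pairs with Jun proteins or with itself. Fos, Fosb, Jun, Junb and Atf3 are classic immediate early genes, whose transcripts appear and decay quickly after growth factors, cytokines or stress, while Jund is regarded as expressed constitutively. In stratified epithelium AP-1 takes part in keratinocyte proliferation, differentiation and wound repair.

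All mice carried the Langerin-DTR allele, which places the receptor for diphtheria toxin under the control of langerin (Cd207), so that the toxin kills langerin-expressing cells, among them the Langerhans cells of the epithelium. The control group was 5 mice injected with PBS and the depleted group was 6 mice injected with diphtheria toxin (DT), at 17, 24 and 31 days of age around weaning. Epithelium was taken from the adults at 8 weeks of age, well after the last injection. No group without the allele was included, so that an effect of the toxin on cells without the receptor cannot be told apart from the loss of langerin-expressing cells. Each RNA sample is called a mouse below, and its number is the one in the sample labels.

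Between 17509327 and 24325513 reads per mouse were recovered from the deposited values, which are gene counts divided by a size factor for each mouse. The epithelial origin of the libraries showed in the 14 keratinocyte markers, which summed to between 2850660 and 2945060 normalized counts after PBS and between 2932170 and 3172220 after DT. The markers of fibroblasts, which would come from the lamina propria, summed to 1607 to 1864 and to 1434 to 1885. Cd207 had 10.0 to 43.0 normalized counts after PBS and 15.8 to 21.6 after DT, so that the groups overlapped at this age. Over all genes, 107 of 19170 differed between DT and PBS at an adjusted p under 0.1 (limma with Benjamini-Hochberg adjustment, 0.558%), 60 of them higher after DT (0.313%), and the median log2 difference was -0.01. In such bulk samples fewer cells of a type and less RNA per cell cannot be told apart.

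The 110 bases before the RefSeq start of 5 members are shown because these are the immediate early members, and in capitals are the letters searched for, TGACG (the core of a cAMP response element, either strand), TGACATCA (the variant AP-1 element known from Jun, either strand) and TATAAA (the TATA box, sense strand). The sequences come from RefSeq on GRCm38.p6 and read 5′ to 3′ along the gene, for Fos from chr12:85473780-85473889 (plus strand), Fosb from chr7:19310046-19310155 (minus strand), Jun from chr4:95052223-95052332 (minus strand), Junb from chr8:84978749-84978858 (minus strand) and Atf3 from chr1:191183334-191183443 (minus strand).
Fos: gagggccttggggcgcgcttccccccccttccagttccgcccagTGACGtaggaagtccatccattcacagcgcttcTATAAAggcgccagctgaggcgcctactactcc
Fosb: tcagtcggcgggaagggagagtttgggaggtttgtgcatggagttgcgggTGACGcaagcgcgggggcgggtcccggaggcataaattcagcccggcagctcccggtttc
Jun: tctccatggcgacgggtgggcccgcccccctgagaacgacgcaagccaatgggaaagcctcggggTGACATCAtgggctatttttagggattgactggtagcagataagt
Junb: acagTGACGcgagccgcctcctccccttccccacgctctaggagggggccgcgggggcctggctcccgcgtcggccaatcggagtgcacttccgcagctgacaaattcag
Atf3: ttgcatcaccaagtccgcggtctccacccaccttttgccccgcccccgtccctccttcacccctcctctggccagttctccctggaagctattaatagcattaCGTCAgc

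Counted back from the base before the start (-1), TGACG began at -66 in Fos, at -60 in Fosb and at -106 in Junb, with a further copy at -129 in Fos outside the stretch shown. In Atf3 it lay on the opposite strand from -7 to -3. In windows from 250 bases before to 50 after the start, TGACG was present in 20.8% of 32851 RefSeq promoters, TGACATCA in 3.62% and TATAAA in 8.32%. Jun was the only one of the 7 members with a promoter entry to hold TGACATCA, which spanned -45 to -38. TATAAA lay from -33 to -28 in Fos and, counted from the RefSeq start, from 1 to 6 in Junb. The RefSeq start of Junb lies 30 bases before the nearest GENCODE transcript start, so the positions in Junb depend on the start used. That of Atf3 lies 7 bases from the nearest GENCODE transcript start and 34706 bases from the 5′ end of the gene. The full palindromes TGACGTCA (1.79% of promoters, and containing TGACG) and TGACTCA (5.20%) were found in none of the 7 windows. Neither Fosl2 nor Jund held any of these letters, but the RefSeq start of Jund lies 1210 bases before the start in the GENCODE annotation and that of Fosl2 lies 299 bases from the nearest GENCODE transcript start, so that these 2 windows may not be those in use. A match of letters is a description and not a binding site, and the absence of a match says only that these letters are not in the window.

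Of the 4 Fos members, Fos and Fosb had the larger differences between DT and PBS, Fosl1 had a smaller one and Fosl2 had little or none. Fos, which encodes the founding partner of Jun, lies at chr12:85473890-85477273 on the plus strand in 4 exons. It had 5327, 3296, 3906, 9475 and 2282 normalized counts in PBS mice 1 to 5, and a low of 10882, a median of 13943 and a high of 17819 in the DT mice. Every DT mouse was above every PBS mouse, and PBS 4 came closest, with more than 4 times the count of PBS 5. The difference on log2(normalized count + 1) was 1.70 (SE 0.26, 95% interval 1.16 to 2.25), a 3.26-fold ratio.

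Fosb encodes a Fos protein that also exists as a shortened form, and the gene spans chr7:19302696-19310051 on the minus strand. Its normalized counts were 2510, 1580, 696, 5983 and 299 in PBS mice 1 to 5 and ranged from 5080 to 10461 in the DT mice, with a median of 5671. The groups overlapped, since PBS 4 exceeded 4 of the DT mice. The log2 difference was 2.19 (SE 0.53, 95% interval 1.07 to 3.30), and Fosb did not pass the threshold of an adjusted p under 0.1. Without PBS 4 the difference was 2.72 and without PBS 5 it was 1.64, and in both of these fits Fosb passed.

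Fosl1 (Fra-1), a Fos protein without the C-terminal activation domain of Fos, was the least abundant member. The gene occupies chr19:5447547-5455946 on the plus strand and shares 1163 exon bases with Ccdc85b on the other strand. Its normalized counts were 52.1, 70.0, 77.4, 71.0 and 57.7 in the PBS mice and 74.3 to 188 in the DT mice, with a median of 88.2. DT 6 stood apart at 188, and the next DT mouse had 101. The Fosl1 difference on the log2 scale was 0.60 (SE 0.20, 95% interval 0.17 to 1.02), the threshold was not passed, and without DT 6 the difference was 0.41.

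Fosl2 (Fra-2), the related protein that keratinocytes express in the differentiating layers, had the largest normalized count of the Fos members in 4 of the 5 PBS mice. The gene runs over chr5:32135801-32157842 on the plus strand. Its normalized counts were 8456, 7454, 7847, 8293 and 6309 in the PBS mice and 6321 to 7518 in the DT mice, with a median of 7153. The groups overlapped and the DT mean lay below the PBS mean. The log2 difference was -0.12 (SE 0.072) with a 95% interval from -0.27 to 0.04.

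**Figure D1:**
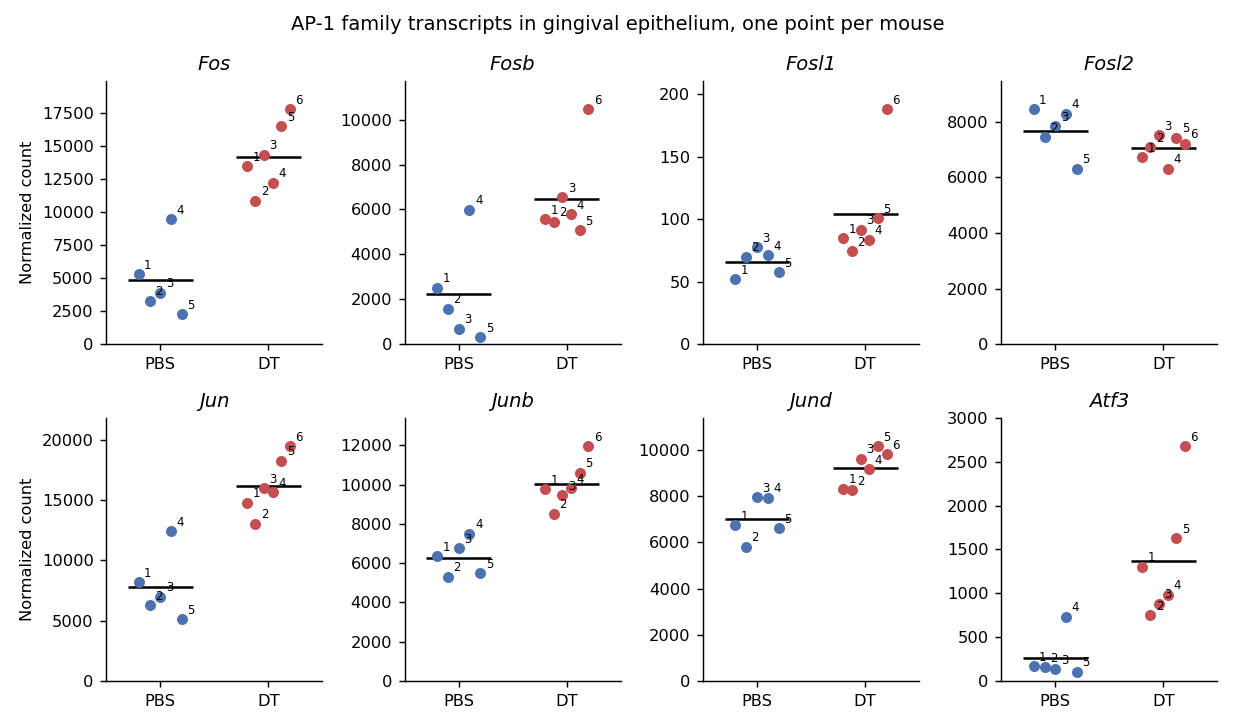
Normalized counts (y axis, from 0, a scale for each gene) of the 8 members in the 5 PBS mice (blue) and 6 DT mice (red). Each point is a mouse with its number, the horizontal lines are group means, and PBS 4 lies above the other PBS mice for Fos, Fosb, Jun, Junb and Atf3, at 731 normalized counts for Atf3.

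The 3 Jun members, known as genes without introns, were all higher in every DT mouse than in any PBS mouse, by amounts that fell from Jun to Junb to Jund. Jun, which encodes the partner that Fos needs, lies at chr4:95049034-95052222 on the minus strand. It had 8196, 6278, 6980, 12419 and 5133 normalized counts in the PBS mice and 13063 to 19505 in the DT mice, with a median of 15832. The nearest values of the groups were those of PBS 4 and DT 2. The Jun difference on the log2 scale was 1.11 (SE 0.17, 95% interval 0.75 to 1.47), a 2.16-fold ratio.

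Junb, a Jun protein that restrains Jun in several settings, lies at chr8:84974484-84978718 on the minus strand. Its normalized counts were 6356, 5312, 6753, 7505 and 5492 in the PBS mice and 8514 to 11970 in the DT mice, with a median of 9780. PBS 4 was again the highest control, but by a smaller margin than for Jun. The log2 difference was 0.68 (SE 0.093, 95% interval 0.48 to 0.88), a 1.60-fold ratio.

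Jund, the Jun protein regarded as constitutive, lies on the same chromosome at chr8:70698949-70700616 on the plus strand. Its normalized counts were 6736, 5809, 7959, 7945 and 6609 in the PBS mice and 8268 to 10180 in the DT mice, with a median of 9392. PBS 3 and PBS 4 lay just below the lowest DT mouse. The Jund difference on the log2 scale was 0.40 (SE 0.083, 95% interval 0.23 to 0.58), a 1.32-fold ratio, and Jund fell short of the threshold in 6 of the 11 fits with a mouse removed (those without PBS 1, PBS 2, DT 3, DT 4, DT 5 or DT 6). Over the 11 fits its difference ran from 0.34 to 0.45. Overlapping genes on the opposite strand share exon bases with these members, 232 with Junos (Jun), 173 with Prdx2 (Junb) and 877 with Gm11175 (Jund), and whether the counting used strand is not stated.

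Atf3, a bZIP protein of the ATF group that is induced by stress and can repress as a homodimer, lies at chr1:191170296-191218039 on the minus strand. Its normalized counts were 170, 154, 131, 731 and 107 in the PBS mice and 751 to 2680 in the DT mice, with a median of 1141. The 4 PBS mice other than PBS 4 were at or below 170, and PBS 4 lay just below DT 2. The log2 difference was 2.68 (SE 0.41, 95% interval 1.81 to 3.55), a 6.41-fold ratio and the largest of the 8 members.

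In all, 5 of the 8 members passed the threshold, each of them higher after DT (Fos, Jun, Junb, Jund and Atf3), and the same 5 did not overlap between the groups. Over all genes 0.558% passed, 0.313% passed as higher, and in 0.902% every DT mouse was above every PBS mouse. Since this contrast chose the members, nothing is read from the calls or from the comparison of these shares. With the number in the library names as a replicate block 0 of all genes passed, members included, in limma. In that fit DT 5 has no PBS partner and adds nothing to the difference. The median log2 difference of the members was 0.89.

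**Figure D2:**
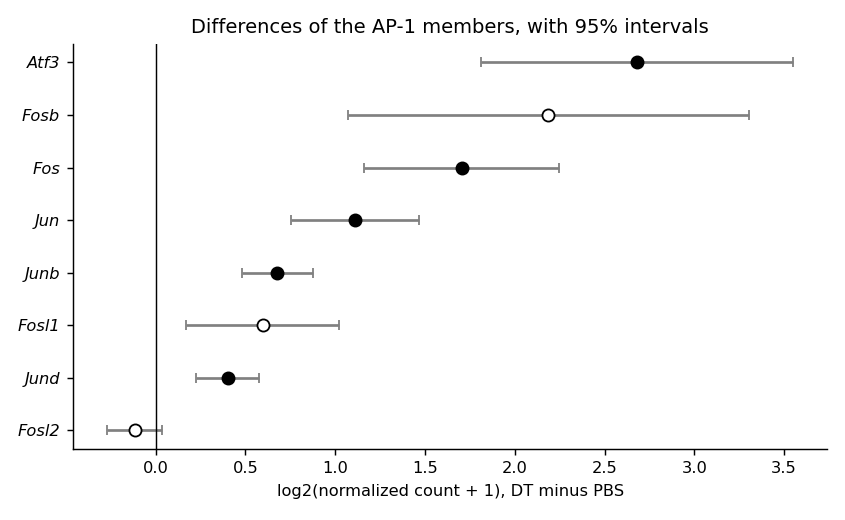
Difference between DT and PBS mice in log2(normalized count + 1) for each member (x axis), with 95% intervals as bars. Filled points passed an adjusted p under 0.1 in the fit over all genes and open points did not. Atf3 lies at 2.68 and Fosl2 at -0.12.

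The spread among mice of a single group did not use the contrast. Among PBS mice the highest count of Fosb was 20.0 times the lowest, that of Atf3 6.83 times, that of Fos 4.15 times and that of Jun 2.42 times, where the median ratio was 1.26 for genes averaging 100 normalized counts or more. The ratio of Fos was larger than that of 99.6% of those genes and that of Jun larger than that of 98.5%. Junb (1.41), Jund (1.37), Fosl2 (1.34) and Fosl1 (1.49) varied less than these 4. PBS 4 was the highest control for 5 members (Fos, Fosb, Jun, Junb and Atf3), and PBS 5 was the lowest for 5 (Fos, Fosb, Fosl2, Jun and Atf3).

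Among DT mice the same ratio was smaller for Fos (1.64), Fosb (2.06), Jun (1.49) and Atf3 (3.57), whereas that of Fosl1 was 2.53. The median ratio over genes was also smaller in the DT mice, at 1.19. The ratios there were still larger than those of 96.2% of genes for Fos, 98.7% for Fosb, 92.7% for Jun, 99.7% for Atf3 and 99.3% for Fosl1. DT 6 was the highest of its group for 6 members (Fos, Fosb, Fosl1, Jun, Junb and Atf3) and DT 2 the lowest for 6 (Fos, Fosl1, Jun, Junb, Jund and Atf3). Jund and Fosl2 peaked in other mice, Jund in PBS 3 and DT 5 and Fosl2 in PBS 1 and DT 3.

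To test whether members varied together within the groups, each group's mean was subtracted and the members were compared in pairs, which leaves out the difference that chose them. All 28 pairs had a positive Pearson's r, with a median of 0.66, and 10 of them passed an adjusted p under 0.05 in an exact permutation test that reordered mice within their group. How many pairs of other genes would do so was not measured, so these counts are not read as particular to the members. Fos and Jun, which form the classic dimer, were closest, with r = 0.99 (rho 0.95, exact p 4.63e-05, adjusted over the 28 pairs 0.0013). They varied together inside both groups, with r = 0.997 in the PBS mice and 0.95 in the DT mice. Without the 2 mice farthest from the median of Fos, which were PBS 5 and PBS 2, r was 0.98.

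Atf3 followed both of them, with r = 0.91 to Jun (exact permutation, adjusted p 0.0043) and 0.88 to Fos (adjusted p 0.0043). Junb was correlated with Jun (0.86), with Fos (0.82) and with Atf3 (0.82). Fosb was correlated with Fos (0.89), Jun (0.86) and Atf3 (0.77). Jund passed with Junb alone (0.82, exact permutation, adjusted p 0.0224), while Fosl1 and Fosl2 passed with no member. For Fosl2 the r to Fos was 0.76 with an adjusted p of 0.072 in the exact permutation test, and 0.43 without the 2 farthest mice. By Spearman's rho 6 of the 10 pairs passed. Without PBS 4, 3 pairs passed (Fos with Jun, Fos with Atf3 and Jun with Atf3), and without PBS 4 and DT 6 together 0 passed, although r between Fos and Jun was then 0.97 (exact permutation, adjusted p 0.0583).

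**Figure D3:**
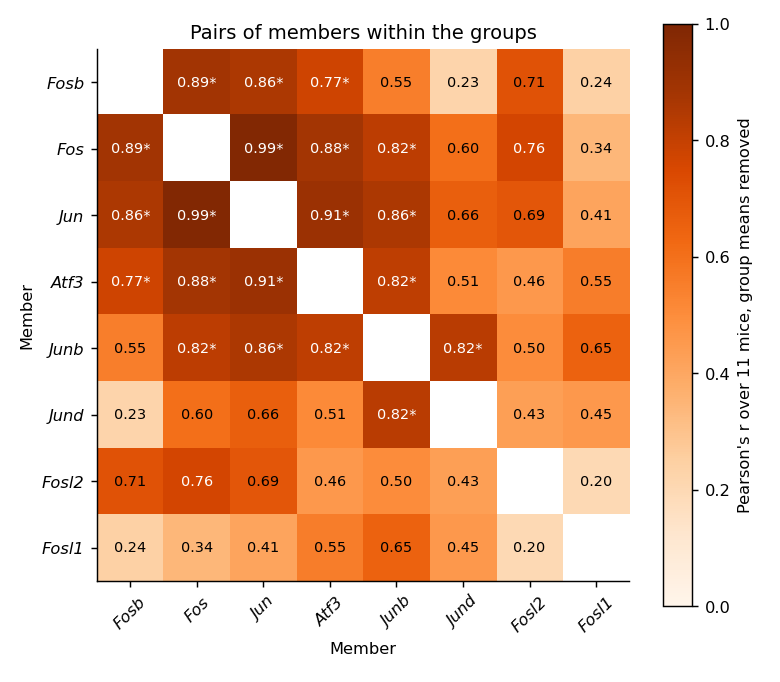
Pearson's r for each pair of members (x and y axes) over the 11 mice, in log2(normalized count + 1) with each group's mean subtracted, on a colour scale from 0 to 1. Asterisks mark the 10 pairs past an adjusted p of 0.05, and Fosl1 and Fosl2 have none.

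Of the 10019 genes that averaged 100 normalized counts or more, those most like a member over the 11 mice with group means subtracted were found by Pearson's r, as a description. Egr1, a zinc finger immediate early factor, was the gene most like Fos (0.99), followed by Jun, Ccn1, Zfp36 and Gadd45g (0.96). The genes most like Jun were Fos, Zfp36, Egr1, Gadd45g and Ccn1, the same genes with Fos in place of Jun. For Atf3 the list was Btg2 (0.99), Itga6, Fbxo45, Shtn1 and Ccn1, and for Junb it was Ier2 (0.96), Gli3, Tob1, Dusp1 and Fam214a. No immediate early gene of the list used below was among the 5 genes most like Fosb, which were Ptprs (0.97), Pirt, Katnip, Pcf11 and Atg9b. The 5 most like Fosl2 were led by Dnajb4 (0.98), those most like Jund by Dcun1d2 (0.97) and those most like Fosl1 by Galnt11 (0.88).

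Levels were compared between members as normalized counts per kilobase of merged exons, which assumes reads along the whole transcript. The labels name a stranded mRNA kit, but the study's methods follow a guide for libraries of 3′ ends, so the order of the levels depends on which applies. The order also depends on the length used. Junb has 2301 merged exon bases but 1809 in its longest transcript, while Jun has 3189 by both. In the PBS mice Jund was highest, with 4204 ± 557 normalized counts per kilobase (SD, n = 5), then Junb (2731 ± 394), Jun (2446 ± 881) and Fos (2065 ± 1194). Fosl2 (793 ± 88.5), Fosb (355 ± 364), Atf3 (120 ± 123) and Fosl1 (32.3 ± 5.13) came after them. The ranges of Jund and Junb, of Fos and Fosl2, and of Atf3 and Fosl1 did not overlap, and those of the other neighbours did.

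In the DT mice Fos came first with 6049 ± 1105 normalized counts per kilobase (SD, n = 6), then Jund (5534 ± 475), Jun (5085 ± 735) and Junb (4355 ± 508). Among these 4 each range overlapped the next, and Fosb (1038 ± 322) was below all of them and above Fosl2 in every mouse. Fosl2 (728 ± 46.7) and Atf3 (636 ± 332) overlapped, and Fosl1 was last (51.1 ± 20.8). Summed over the 8 members, the level was 9707 to 18138 in the PBS mice and 19372 to 28539 in the DT mice. The 3 Jun members held 65.7 to 82.0% of this sum after PBS and 60.3 to 66.8% after DT, and the share of Fos was 10.0 to 22.2% after PBS and 23.7 to 27.2% after DT. PBS 4 had the lowest Jun share of the controls and the highest Fos share.

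**Figure D4:**
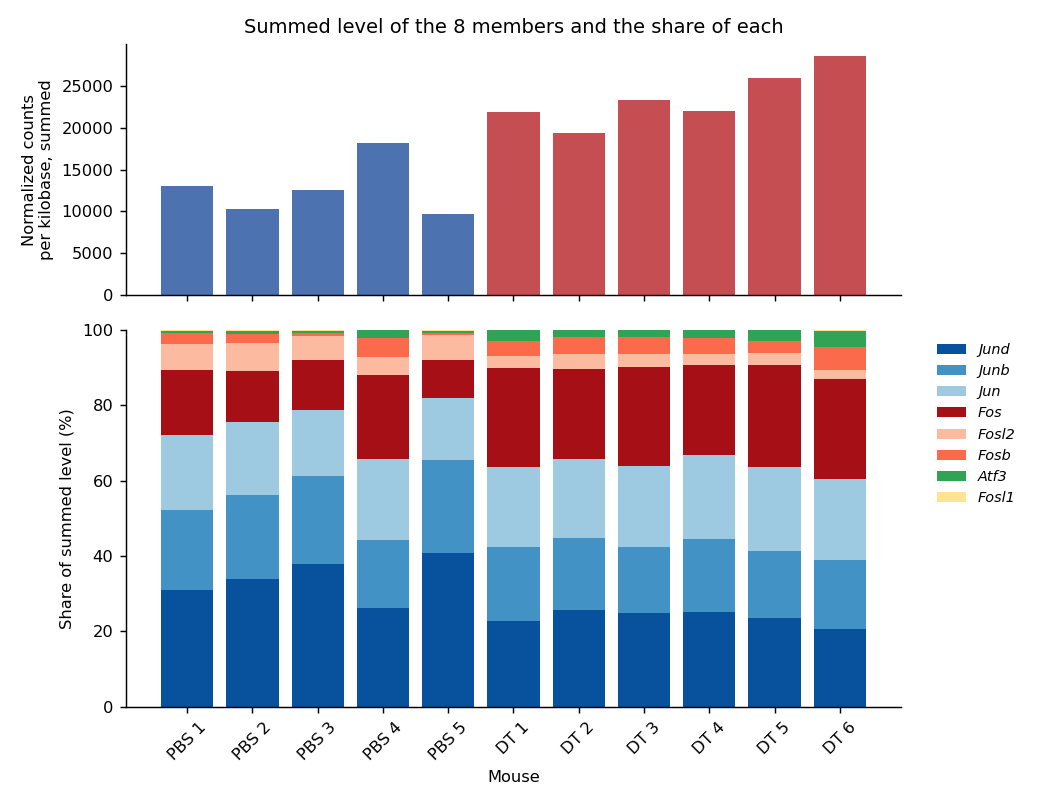
Summed level of the 8 members in normalized counts per kilobase (upper bars) and the percent that each member contributed (lower stacked bars) in each of the 5 PBS and 6 DT mice. The 3 Jun members (blue shades) make up 65.7 to 82.0% after PBS and 60.3 to 66.8% after DT.

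Immediate early transcripts often carry the pentamer ATTTA in the 3′ UTR, the core of the AU-rich elements that mark transcripts for rapid decay. Jund and Fosl2 varied less among the PBS mice than Fos and Jun, although their ratios (1.37 and 1.34) were above the median of 1.26. The stretch with the densest pentamers, in capitals, is shown for these 4 members.
Fos: tcaATTTATTTAtta
Jun: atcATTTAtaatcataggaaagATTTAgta
Jund: cctATTTAtgt
Fosl2: gacATTTAttttattATTTAttt

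Fos had 4 pentamers in a 3′ UTR of 815 bases, which is 4.91 per kilobase and more than in 93.3% of the 14135 protein-coding genes measured. Junb (4.12 per kilobase), Jun (3.24) and Atf3 (2.53) followed. Jund (1.88), Fosl2 (1.72) and Fosl1 (1.57) lay nearer to the median gene, which had 1.31 per kilobase. Fosb had the fewest, 0.47 per kilobase and more than 33.1% of genes, although its counts varied most among the PBS mice. The densest stretches of Fosb and Atf3, not shown, held 1 pentamer each. By count Fosl2 held 8 pentamers, more than the 4 of Fos, in a longer 3′ UTR of 4653 bases. A link between pentamers and the spread among mice was not tested.

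The relatives of the members and the genes upstream of them were examined in the same limma fit. In that fit 2204 of all 19170 genes were at an unadjusted p under 0.05, a share to set beside the counts of each list. Of 38 other bZIP genes, which include dimer partners of the ATF, MAF, CEBP and BATF groups, 37 had values and 0 passed the threshold in either direction, with a median log2 difference of -0.03 and 8 genes at an unadjusted p under 0.05. Among the most abundant were Nfe2l2 (mean 9056 after PBS and 10068 after DT, log2 difference 0.15, adjusted p 0.259) and Maf (log2 difference 0.10). Without PBS 5, 3 of them passed as lower after DT (Atf7, Bach1 and Ddit3), and without PBS 3, 1 passed as higher (Cebpb).

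Of 38 kinases of the MAPK pathways, which phosphorylate Jun, Fos and their activators, 37 had values and 0 passed, with a median log2 difference of -0.02 and 4 at an unadjusted p under 0.05. The most abundant were Map3k20 (log2 difference 0.04), Map4k4 (0.05) and Mapk3 (0.00, 95% interval -0.17 to 0.17). Of 16 gene names for SRF, its ternary complex and MRTF cofactors, ETS and MEF2 factors and the CRTC coactivators of CREB, which act at promoters of immediate early genes, 14 had values, 0 passed and 4 were at an unadjusted p under 0.05. Ets2 (0.01), Mef2a (-0.13) and Mef2d (-0.12) had the highest means. The median of this list was -0.12, and 3 of the 14 differences were positive. Without PBS 4, 1 of these genes passed, Elk3, a ternary complex factor, as lower after DT.

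Of 38 genes known as targets of AP-1, 36 had values and 1 passed, Areg, which encodes the EGF receptor ligand amphiregulin. Areg had 52.1, 36.9, 74.4, 79.2 and 68.2 normalized counts in the PBS mice and 76.6 to 193 in the DT mice, with a log2 difference of 1.01 (SE 0.22, limma adjusted p 0.0784). It did not pass without PBS 1, PBS 2, DT 1, DT 4, DT 5 or DT 6. The most abundant targets, the keratins Krt6a (log2 difference 0.05), Krt6b (-0.04) and Krt16 (-0.05) of activated epithelium, did not pass. The median over the list was -0.05, with 7 genes at an unadjusted p under 0.05.

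Other immediate early genes, which share inducers with Fos and Jun, had a median log2 difference of 0.50 over 28 of 31 genes with values, and 12 passed as higher and 0 as lower. This count was 7 without PBS 1 or PBS 2 and 6 without DT 5 or DT 6. The 8 with the smallest p were Ier2 (log2 difference 0.75), Btg2 (0.76), Dusp1 (1.02), Zfp36 (1.10), Rhob (0.52), Dusp6 (0.77), Egr1 (1.58) and Klf2 (0.97). Of these Zfp36 encodes a protein that binds ATTTA and speeds decay, and Dusp1 and Dusp6 encode MAPK phosphatases. The most abundant of those that did not pass were Klf4 (0.16), Btg1 (0.17) and Mcl1 (0.12).

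Of 15 heat shock genes 2 passed, both higher after DT, with a median log2 difference of 0.15 and 10 genes under 0.05 without adjustment. Those that passed were the chaperones Dnajb1 (log2 difference 0.56, limma adjusted p 0.0082) and Hspa1a (0.68, limma adjusted p 0.0375), and Hspa1a did not pass without PBS 1, PBS 2, DT 5 or DT 6. The most abundant, Hsp90ab1 (0.09), Hspb1 (0.13) and Hspa8 (0.25), did not pass.

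**Figure D5:**
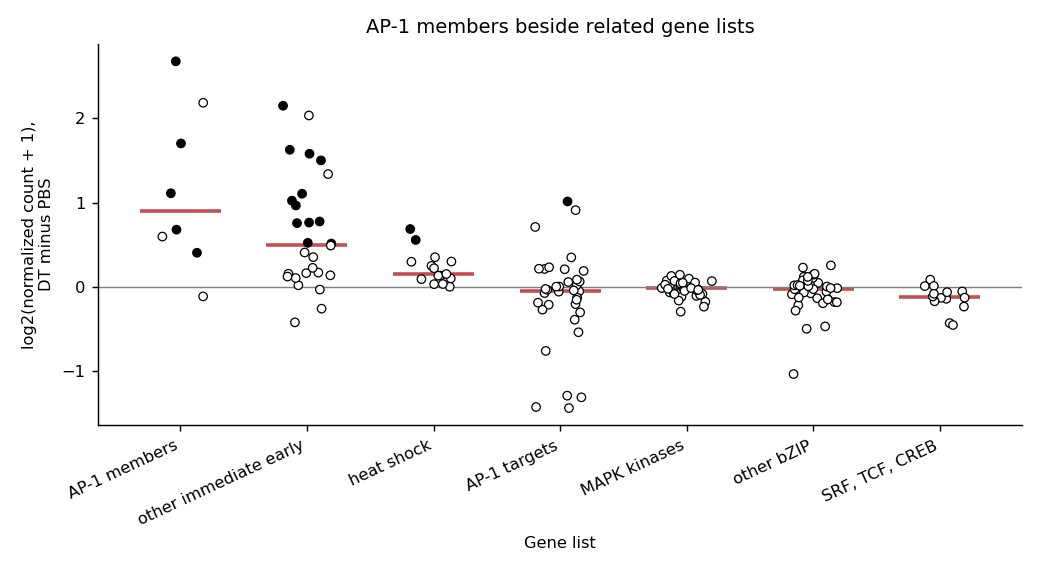
Difference between DT and PBS mice in log2(normalized count + 1) (y axis) for the genes of 7 lists (x axis), a point for each gene, filled where it passed an adjusted p under 0.1, with the list's median as a red line. The medians are 0.89 for the AP-1 members, 0.50 for other immediate early genes and between -0.12 and 0.15 for the rest.

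The mitochondrial mRNAs and the markers of cell types are given beside these results. The 12 mitochondrial mRNAs with values summed to 330642 to 837097 normalized counts in the PBS mice and 274107 to 459171 in the DT mice (two-sided exact permutation test over mice, p 0.0238, adjusted over 9 lists 0.107), and 1 of them, mt-Co2, passed as lower. PBS 4, with the highest Fos of the controls, had 2.92% of its normalized counts in mitochondrial mRNAs, between PBS 1 (2.87%) and PBS 5 (3.03%). The keratinocyte markers had an exact permutation p of 0.0216, adjusted 0.107. The 9 Langerhans cell markers, with all 9 at or above a mean of 10, summed to 2398 to 5652 after PBS and 1732 to 3340 after DT (exact permutation p 0.139). The log2 difference of each of the 9 was negative, with a median of -0.35 and 3 at an unadjusted p under 0.05 (Cd74, Ptprc and Mfge8), and PBS 4 had the lowest sum of the controls. The lists for myeloid, T, fibroblast, endothelial, melanocyte and muscle cells had exact permutation p-values between 0.312 and 0.981, and 0 genes of the cell type lists passed. A mean of 10 was reached by 8 of 9 myeloid and 6 of 9 fibroblast genes. It was reached by only 1 of 6 T cell, 1 of 6 endothelial, 1 of 7 muscle and 0 of 2 melanocyte genes. These last lists could hardly show a change. The part of any of the lists in the levels of the AP-1 members was not tested.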

How the data were processed

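RNA of gingival epithelium from 5 PBS and 6 DT mice was sequenced, on stranded mRNA libraries per the labels. Reads were trimmed by the authors, aligned with TopHat, and counted per gene with htseq-count. The authors dropped genes with a low summed count and divided the counts by their DESeq2 size factors. The deposited values are these normalized counts, given for 19170 of 55414 listed genes. The study's methods name GRCm38, and the submitters' processing notes name GRCm39, cutadapt 2.10, TopHat2 2.1.1, HTSeq 2.01 and DESeq2 1.36.0. Whether the epithelium was lifted off after incubation with an enzyme is stated for some experiments only.

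For DT against PBS, limma 3.58.1 was run under R 4.3.3 (intensity trend, no covariate) on log2(normalized count + 1), so that a fold understates the change of low genes, and p-values of all 19170 genes were adjusted together (Benjamini-Hochberg, called under 0.1). On simulated data 194 of 200 changed genes were recovered. The members, the lists and the tests were chosen with earlier results of these data known. Named genes were all members, and of each other list those past the threshold (at most the 8 with the smallest p) and the 3 most abundant of the rest, while the cell type lists are given as sums. Of the genes so chosen 1 is not reported here. Other genes of the lists that passed only without a mouse were named after their values were seen.

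Pairs of members were tested by permutation of mice within groups, with all orders enumerated. Positions, exon lengths and 3′ UTRs came from GENCODE mouse release 21 (GRCm38), which may differ from the authors' annotation. Whole reads could be recovered within 0.05 for all low values, and were used for depth only. The labels do not say whether mice shared a litter or a cage, so the p-values measure the spread between these mice. The alternatives were TMM scaling, other pseudocounts, a minimum mean of 10, a replicate block by title or by library number, the longest transcript as length and leaving out each mouse.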

Additional observations from a re-analysis of the deposited data

Results flagged for a closer look

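Of the 16 groups of values checked (8 members in PBS and in DT mice), 3 held a mouse far from the others by Dixon's criterion, which chance meets in about 1 of 20 groups. Atf3 in PBS 4 was 731 normalized counts, against 107 to 170 in the other PBS mice. Fosb in DT 6 was 10461, with the next DT mouse at 6549. Fosl1 in DT 6 was 188, with the next DT mouse at 101.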

How the results depend on the processing

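The fold changes of the 8 members kept their direction in 136 of 136 refits, 0 reversed. The refits with a minimum mean repeated the main fold changes, and the block fits repeated those without DT 6 or DT 5. Such refits could not show a new direction, and this contrast chose the members, so the count is a description only. The fold changes stayed on the same side of the threshold in 122 of the 136. Outside the block by library name below, those that crossed it were Jund, which lost it, and Fosb, which gained it in 2. The number of members past the threshold ranged from 4 to 6 when each mouse was left out in turn.

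Leaving out each mouse in turn gave 0 to 3 other bZIP genes, 0 to 1 genes of the SRF list, 0 to 2 AP-1 targets, 1 to 3 heat shock genes, 6 to 13 other immediate early genes and 3 to 11 pairs of members. Leaving out PBS 4 and DT 6 together, chosen after seeing the data, gave 0 pairs. The MAPK kinases gave 0 in each of these fits. The share of the Jun members after PBS, a mean of 74.8%, was 71.8% with the longest transcript as length. The order of single members with that length is not given, and the place of Junb among them depends on the length.

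The deviations of same-numbered mice had correlations from -0.233 to 0.324, and 1 of 5 PBS mice correlated best with its own number. So few values cannot tell whether the replicate numbers pair the mice. With these numbers as a replicate block 35 of all genes passed in place of 107, and 4 of 8 members, with Jund (0.38) lost, and Hbegf in place of Areg among the AP-1 targets. The library names in the titles number PBS 5 as 6, like DT 6, and that pair had a correlation of -0.0477. With the library numbers as a replicate block, also chosen after seeing the data, 0 members, 0 AP-1 targets, 0 heat shock genes and 0 other immediate early genes passed in limma. Over all genes 0 passed and 1404 were at an unadjusted p under 0.05, and the log2 differences were 1.66 for Fos, 1.07 for Jun, 0.66 for Junb, 0.37 for Jund and 2.60 for Atf3. DT 6 has no PBS partner by title and DT 5 has none by library number, so these mice add nothing to the difference. The block by title thus repeats the log2 differences without DT 6 (1.63 for Fos). The block by library number repeats those without DT 5 (1.66 for Fos). Neither block is a fit on all the mice, and why fewer genes passed with the library numbers was not tested.

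Tests on recovered counts, planned as alternatives, were not run, since the recovery of whole reads could not be checked in 2 mice, where a read is worth nearly 1 normalized count. Fosl1 is limited by depth, at 52.1 to 188 normalized counts.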
